A study of Mus musculus with 6 samples.

Results

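The 8 genes described here encode the opioid peptides and their receptors: the peptide precursors Penk, Pdyn, Pomc and Pnoc and the receptors Oprm1, Oprd1, Oprk1 and Oprl1. They were chosen by name as members of 1 signalling family, and all 8 were found among the 32531 gene entries of each library. All 8 also passed the low-count filter that kept 17197 genes.

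RNA came from the midbrain of adult mice of the Lhx5-TRAP line DT154, which carry the transgene Lhx5-EGFP/Rpl10a and were untreated controls. Regulatory sequences of Lhx5, a LIM homeodomain gene of several neuron classes, drive a ribosomal protein fused to EGFP, and antibodies against EGFP then pull down ribosomes with their messenger RNA (translating ribosome affinity purification, TRAP). The RNA pulled down (IP) was sequenced in 3 libraries and compared with 3 libraries titled input. A second label calls the input set unbound, so it may be whole homogenate or what the beads left behind. Both groups came from the same transgenic line, 1 insertion line whose tag depends on Lhx5 sequences, and no library came from mice without the tag. Whether replicates came from different animals is not in the labels, and p-values therefore measure only the spread between these libraries, which may be technical.

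Opioid peptides are cut from larger precursor proteins at pairs of basic residues by prohormone convertases. Penk (preproenkephalin) yields the enkephalins, Pdyn (preprodynorphin) the dynorphins, Pomc (pro-opiomelanocortin) beta-endorphin and melanocortins, and Pnoc (prepronociceptin) nociceptin. Their receptors couple to inhibitory G proteins that open potassium channels, close calcium channels and lower cyclic AMP. Enkephalins act mainly on the delta receptor (Oprd1) and the mu receptor (Oprm1, also the receptor of beta-endorphin and morphine), dynorphins on the kappa receptor (Oprk1) and nociceptin on the nociceptin receptor (Oprl1). In the midbrain this system is known for pain control in the periaqueductal grey and for the control of dopamine neurons in the ventral tegmental area.

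The coding sequences show what the 4 precursors share and where Pnoc stands apart, and are given from the GENCODE M21 transcripts (GRCm38), coding strand, 5′ to 3′. Capitals mark the 4 codons of the opioid core, Tyr-Gly-Gly-Phe, or in Pnoc of Phe-Gly-Gly-Phe, with the 2 codons before and the 3 codons after in lower case. Copies are numbered from the start codon.
Penk copy 1: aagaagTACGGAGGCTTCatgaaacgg
Penk copy 2: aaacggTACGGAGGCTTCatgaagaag
Penk copy 3: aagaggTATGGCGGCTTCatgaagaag
Penk copy 4: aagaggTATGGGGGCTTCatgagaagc
Penk copy 5: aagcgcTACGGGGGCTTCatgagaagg
Penk copy 6: aagaggTATGGGGGCTTCctgaagcgc
Penk copy 7: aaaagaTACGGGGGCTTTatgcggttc
Pdyn copy 1: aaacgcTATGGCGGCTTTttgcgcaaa
Pdyn copy 2: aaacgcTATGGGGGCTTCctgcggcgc
Pdyn copy 3: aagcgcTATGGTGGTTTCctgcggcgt
Pomc copy 1: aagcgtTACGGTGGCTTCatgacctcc
Pnoc copy 1: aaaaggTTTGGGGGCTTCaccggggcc

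Penk held 7 copies of the opioid core in 268 codons, Pdyn 3 copies in 248 codons and Pomc 1 copy in 235 codons. In each of these copies the core followed a pair of basic codons. The residue after the core was methionine in 6 of the 7 Penk copies and in Pomc, and leucine in Penk copy 6 and in all 3 Pdyn copies. Pnoc held 0 copies of Tyr-Gly-Gly-Phe and 1 of Phe-Gly-Gly-Phe, also after a pair of basic codons. Among 21590 mouse genes with a complete coding sequence, 71 (0.329%) encoded Tyr-Gly-Gly-Phe anywhere, and 3 (0.0139%) encoded it directly after a pair of basic residues. Those 3 genes were Penk, Pdyn and Pomc.

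Per length of the gene's exons, Penk was by far the most abundant of the 8 RNAs, and Oprl1 came next in both groups. Levels between genes are given as RPKM, CPM (a gene's counts scaled to the adjusted total of its library) divided by the exon length in kilobases. In IP the mean levels ran, high to low, from Penk (119.3 ± 35.5 RPKM) through Oprl1 (24.8 ± 3.50), Pnoc (14.2 ± 2.58), Oprm1 (4.99 ± 0.340), Pomc (2.76 ± 0.856), Oprk1 (2.22 ± 0.721) and Oprd1 (1.31 ± 0.338) to Pdyn (1.20 ± 0.554; SD, n = 3 each). The IP libraries of Penk, Oprl1, Pnoc and Oprm1 did not overlap with those of the next gene in that order, whereas Pomc and Oprk1, Oprk1 and Oprd1, and Oprd1 and Pdyn overlapped. In input the order was Penk (84.0 ± 61.8 RPKM), Oprl1 (11.2 ± 2.28), Pnoc (5.87 ± 1.40), Pdyn (4.02 ± 2.90), Pomc (3.74 ± 0.890), Oprm1 (3.39 ± 0.499), Oprk1 (2.30 ± 0.592) and Oprd1 (1.64 ± 0.168), with overlap between neighbours from Pnoc down to Oprm1 and between Oprk1 and Oprd1. The level of Oprm1 depended on the length used. With each gene's longest transcript in place of the union of its exons, an alternative chosen after seeing the data, Oprm1 averaged 13.9 RPKM in IP and 9.48 RPKM in input. In IP it remained the gene after Pnoc (14.2 RPKM), with overlapping libraries, and in input it stood above Pnoc (5.87 RPKM) and its libraries overlapped with those of Oprl1 (12.5 RPKM). The exon union of Oprk1 was 4769 bases in the GENCODE M21 basic annotation used here, against 9151 bases in the full annotation. With the full length its level would be lower, and its place in the order was not computed.

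Of the 8 genes, Pnoc, Oprl1 and Oprm1 were higher in IP, Pdyn was lower, and Penk, Pomc, Oprd1 and Oprk1 did not pass the test. The comparison asks which of these RNAs were on tagged ribosomes more or less than in the surrounding midbrain. Each gene was tested two-sided in edgeR (quasi-likelihood), with Benjamini-Hochberg adjusted p over all 17197 genes and a threshold of 0.05. It called 53.9% of all genes tested, 26% higher and 27.9% lower, so 4 called of 8 members is no more than the background share. The libraries of IP and input did not overlap for 4 of the 8 members, against 63.5% of all genes tested. In 3 members every IP library was above every input library (30.7% of all genes) and in 1 every IP library was below (32.8%). The median log2 fold change of the 8 was 0.23, against -0.01 for all genes tested. In bulk RNA, fewer cells of a type and less RNA per cell cannot be told apart.

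**Figure D1:**
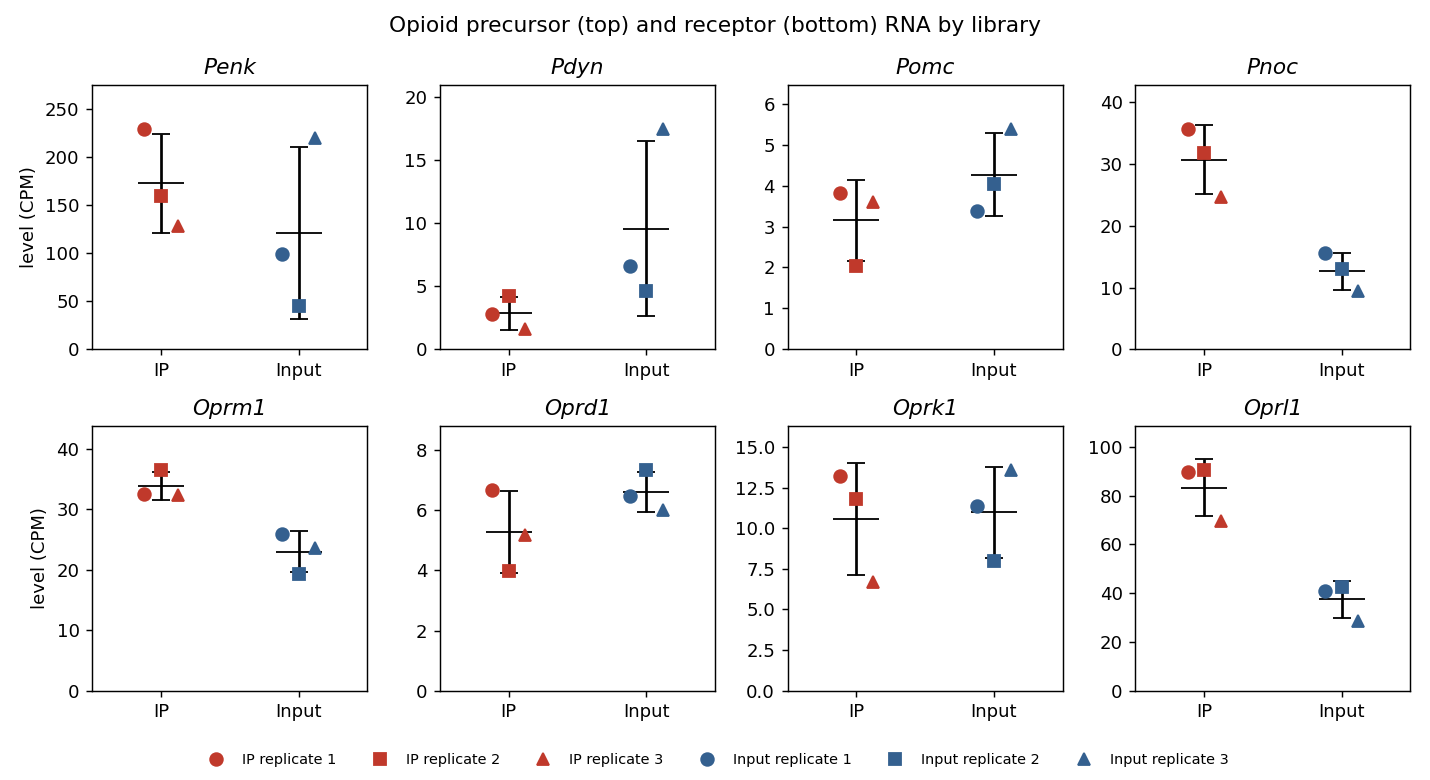
Level of each opioid gene in every library, in CPM, with IP left of input in each panel; symbols are replicates, and the wide dash and bars are the mean and SD of 3 libraries. The IP libraries stand above all input libraries for Pnoc, Oprm1 and Oprl1 and below them for Pdyn, and the groups overlap in the other 4 panels.

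Pnoc, the gene of the nociceptin precursor, lies on chromosome 14 from 65400673 to 65425472 (GENCODE M21, GRCm38, also called mm10) on the minus strand. It had 35.7, 31.7 and 24.7 CPM in IP replicates 1, 2 and 3, against 15.5, 13.0 and 9.5 CPM in input replicates 1, 2 and 3. Every IP library was above every input library. The log2 fold change of Pnoc was 1.28 (SE 0.21), a 2.42-fold rise, and the edgeR adjusted p was 0.00135. This was higher than the change of 95.5% of all genes tested.

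Oprl1, the nociceptin receptor gene, lies on chromosome 2 from 181715016 to 181720985 on the plus strand. It had 89.7, 90.4 and 69.7 CPM in IP replicates 1, 2 and 3, against 40.9, 42.7 and 28.7 CPM in the input replicates, with no overlap. On the log2 scale it rose by 1.15 (SE 0.18), or 2.22-fold, and its edgeR adjusted p was 0.000959. The ratio of ligand to receptor RNA was slightly higher in IP, with overlap between the groups. Pnoc over Oprl1, per exon length, was 0.571 ± 0.0406 in the 3 IP libraries and 0.526 ± 0.0596 in the 3 input libraries (mean ± SD). It was 0.618, 0.546 and 0.550 in IP replicates 1, 2 and 3, against 0.590, 0.472 and 0.515 in the input replicates. The difference in ratio was not tested. Replicate 3 was the lowest library of its group for both genes, in IP and in input.

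Oprm1, the mu receptor gene and the main target of morphine, lies on chromosome 10 from 6758506 to 7038198 on the plus strand. It had 32.5, 36.4 and 32.3 CPM in IP replicates 1, 2 and 3, against 25.9, 19.3 and 23.6 CPM in the input replicates. The groups did not overlap, although the gap between them was smaller than for the nociceptin pair. The log2 fold change was 0.56 (SE 0.14), 1.47-fold, with an edgeR adjusted p of 0.0108. Without IP replicate 2, its highest library, the value was 0.47 and the adjusted p 0.0504. Exons of Oprm1 share 96 bases with Ipcef1 on the opposite strand, which fell by 0.89 on the log2 scale (SE 0.21). Without a stated strand setting, reads in those bases cannot be assigned to either gene.

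Cerebellar RNA set replicate 2 of both groups apart. The markers Car8 and Cbln3 were highest there in both groups, Car8 by more in IP and Cbln3 by more in input. The 8 cerebellar markers summed to 418, 1475 and 448 CPM in IP replicates 1, 2 and 3, against 218, 285 and 223 CPM in the input replicates. The Purkinje cell marker Car8 had 22.4, 555 and 21.0 CPM in the IP replicates, against 23.9, 53.1 and 19.1 CPM in the input replicates. The granule cell marker Cbln3 had 2.89, 4.57 and 2.92 CPM in the IP replicates, against 0.77, 19.2 and 0.79 CPM in the input replicates. Input replicate 2 was the library with the lowest Oprm1 level. Of the 7 cerebellar markers tested, 1 was higher in IP and 6 did not pass. Habenula markers, chosen because the medial habenula is known to be rich in Oprm1, summed to 90.8 to 176 CPM in IP and 74.5 to 111 CPM in input, with 1 of 8 higher, 4 lower and 3 not passed. The habenular receptor gene Gpr151 had 1.46, 0.71 and 0.07 CPM in IP replicates 1, 2 and 3, against 7.38, 3.51 and 4.20 CPM in the input replicates. It was among the 4 lower, but lost its call without IP replicate 2 or input replicate 1 (edgeR adjusted p 0.0610 and 0.0585). Pou4f1, the 1 higher and also a midbrain marker, had 25.7, 13.7 and 37.3 CPM in the IP replicates, against 7.52, 6.10 and 5.26 CPM in input. The part of either tissue in the Oprm1 result was not tested.

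**Figure D2:**
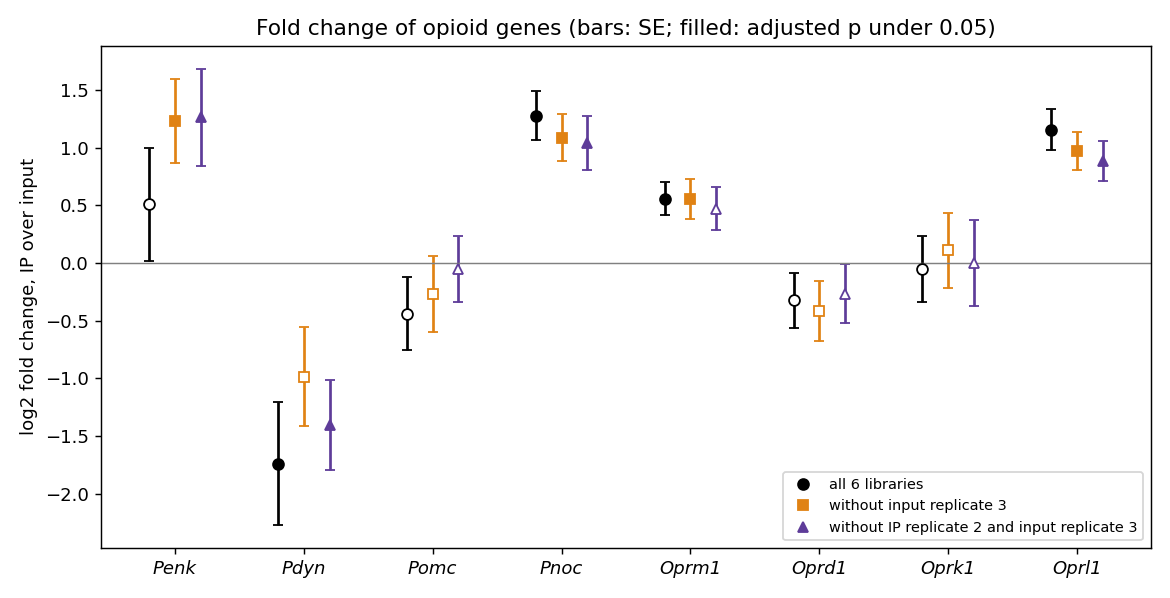
Log2 fold change of IP over input for each opioid gene in 3 fits of edgeR, with all 6 libraries, without input replicate 3, and without IP replicate 2 and input replicate 3; bars are SE and filled symbols have an adjusted p under 0.05. Pnoc and Oprl1 are filled in all 3 fits, Penk is filled only where input replicate 3 is left out, and Pdyn moves toward 0 without input replicate 3.

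Penk, which encodes the enkephalins and is dense in striatal projection neurons, lies on chromosome 4 from 4133531 to 4138819 on the minus strand. It had 229.6, 160.0 and 129.1 CPM in IP replicates 1, 2 and 3, against 99.6, 45.3 and 220.2 CPM in the input replicates. Input replicate 3 lay above IP replicates 2 and 3, whereas input replicates 1 and 2 lay below every IP library. The log2 fold change was 0.51 (SE 0.49, edgeR adjusted p 0.407) over all libraries. Without input replicate 3 it was 1.23 (SE 0.36) and was called (adjusted p 0.0262), and without both IP replicate 2 and input replicate 3 it was 1.26 (SE 0.42, adjusted p 0.0493). Exons of Penk share 233 bases with the noncoding gene A830012C17Rik on the opposite strand, which is not analysed here.

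Pdyn, which encodes the dynorphins, lies on chromosome 2 from 129686565 to 129699844 on the minus strand. It had 2.80, 4.22 and 1.59 CPM in IP replicates 1, 2 and 3, against 6.61, 4.65 and 17.5 CPM in the input replicates. The groups did not overlap, but IP replicate 2 and input replicate 2 lay close together. These levels rest on 68 to 173 counts per library in IP and 203 to 708 counts in input. Pdyn was lower in IP with a log2 fold change of -1.74 (SE 0.53), 3.34-fold, and an edgeR adjusted p of 0.0227. Without input replicate 3 the value was -0.99 (adjusted p 0.0928), without IP replicate 1 it was -1.71 (adjusted p 0.0630), and without IP replicate 3 it was -1.43 (adjusted p 0.0694). With the replicate number, which goes with the lane number, as a block, it was -1.57 (adjusted p 0.112).

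Input replicate 3 also held the most striatal RNA. The 10 striatal markers summed to 340, 254 and 275 CPM in IP replicates 1, 2 and 3, against 373, 223 and 1388 CPM in input replicates 1, 2 and 3. All 10 were tested, with 1 higher, 5 lower and 4 not passed. The 1 higher was Tac1, with 127, 66.7 and 83.7 CPM in the IP replicates, against 47.6, 37.6 and 64.9 CPM in input. Tac1, Scn4b and Pde10a made up most of the sum in every library but input replicate 3. Adora2a, the adenosine receptor gene of enkephalin neurons of the striatum, had 1.0, 0.10 and 0.09 CPM in the IP replicates, against 5.43, 0.05 and 27.7 CPM in the input replicates. Drd1, the dopamine receptor gene of dynorphin neurons of the striatum, had 4.13, 3.76 and 0.65 CPM in the IP replicates, against 11.2, 3.37 and 73.3 CPM in the input replicates. The part of striatal RNA in the Penk and Pdyn levels was not tested. Penk was the more abundant of these precursors in every library, and its ratio to Pdyn per exon length was 135, 62.4 and 134 in the IP replicates, against 24.8, 16 and 20.7 in the input replicates.

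**Figure D3:**
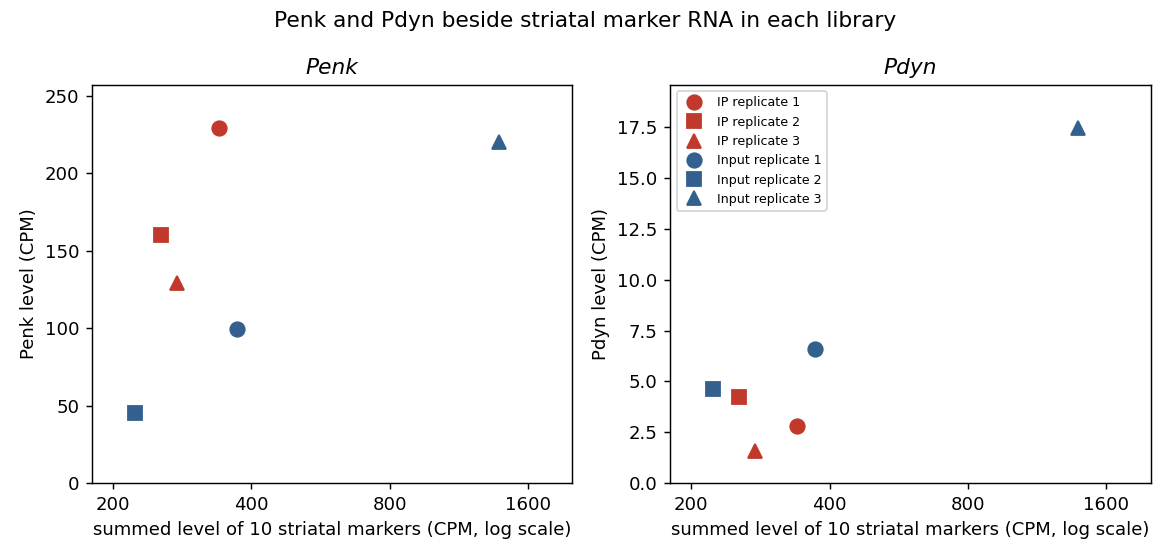
Level of Penk (left) and Pdyn (right) in CPM against the summed CPM of 10 striatal markers (log axis) in each library; symbols are replicates and colours are groups. Input replicate 3, at 1388 CPM of striatal markers, has the highest Pdyn level, 17.5 CPM, and a Penk level of 220.2 CPM, while the IP libraries lie at 254 to 340 CPM of striatal markers with Penk at 129.1 to 229.6 CPM. Most of the marker sum is Tac1, Scn4b and Pde10a in every library but input replicate 3.

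Pomc, the precursor of beta-endorphin that is made chiefly by arcuate hypothalamic and pituitary cells, lies on chromosome 12 from 3954951 to 3960642 on the plus strand. It had 3.82, 2.03 and 3.59 CPM in IP replicates 1, 2 and 3, against 3.39, 4.03 and 5.38 CPM in the input replicates. The groups overlapped, and the log2 fold change of -0.44 (SE 0.32) did not pass (edgeR adjusted p 0.272). Counts were 83 to 160 per library in IP and 141 to 218 in input. The 12 hypothalamic and pituitary markers summed to 9.39, 9.28 and 3.17 CPM in the IP replicates, against 28.5, 33.8 and 102 CPM in the input replicates. Of the 7 that were tested 3 were lower in IP, 0 higher and 4 not passed. The 3 lower were Hcrt, Avp and Oxt, each at most 0.85 CPM in IP. In input replicate 3, the highest Pomc library, they had 20.2, 32.8 and 20.3 CPM. Pmch, which did not pass, had 24.7 CPM there. The part of this tissue in the Pomc level was not tested. The pituitary hormone gene Prl had a CPM of 0 in all 3 IP libraries and at most 0.36 in input, and Gh was at most 0.19 CPM in IP and 0.60 in input.

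Oprd1, the delta receptor gene, lies on chromosome 4 from 132110726 to 132144486 on the minus strand. It had 6.69, 3.98 and 5.18 CPM in IP replicates 1, 2 and 3, against 6.49, 7.34 and 6.0 CPM in the input replicates. IP replicate 1 lay within the input range and the other two IP libraries below it. The log2 fold change was -0.32 (SE 0.24, edgeR adjusted p 0.279).

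Oprk1, the kappa receptor gene, lies on chromosome 1 from 5588466 to 5606131 on the plus strand. It had 13.2, 11.8 and 6.69 CPM in IP replicates 1, 2 and 3, against 11.4, 7.98 and 13.6 CPM in the input replicates. The groups overlapped over nearly their whole range. The log2 fold change was -0.05 (SE 0.29, edgeR adjusted p 0.886). Its sign turned to 0.20 when IP replicate 3 was left out and to 0.11 when input replicate 3 was. IP replicate 3 was its lowest library and input replicate 3 its highest, although both carry the same lane number.

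Among the receptors as a set, Oprl1 made up a larger share in IP than in input. Of the summed RPKM of the 4 receptors, Oprl1 took 74.4% ± 0.857 in IP and 60.0% ± 7.31 in input (mean ± SD, n = 3 per group), with 73.6% to 75.3% in the IP libraries and 52.2% to 66.7% in the input libraries. Oprm1 took 15.1% ± 1.77 in IP and 18.4% ± 3.23 in input. Oprd1 took 3.98% ± 1.05 in IP and 8.91% ± 0.776 in input, and Oprk1 took 6.53% ± 1.41 in IP and 12.7% ± 4.36 in input. With the longest transcript as length, Oprm1 took 31.0% ± 2.92 in IP and 36.6% ± 5.17 in input, and Oprl1 took 61.2% ± 1.79 in IP and 47.9% ± 7.49 in input. With the union of exons, the 4 receptors together reached 33.4 ± 4.41 RPKM in IP and 18.5 ± 1.91 RPKM in input. Shares within a set are tied to each other, and a larger share of Oprl1 lowers the others without any change in their own level. The shares are a description and were not tested.

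Among the precursors Penk held the larger share in every library. It took 86.5% ± 1.56 of the 4 precursors' summed RPKM in IP and 82.5% ± 8.68 in input (mean ± SD, n = 3 per group). Pnoc took 10.5% ± 1.17 in IP and 8.49% ± 5.72 in input, where it spanned 2.62% in input replicate 3 to 14.1% in input replicate 2. Pdyn took 0.888% ± 0.422 in IP and 4.10% ± 0.623 in input, and Pomc took 2.09% ± 0.840 in IP and 4.90% ± 2.95 in input. The shares of Pdyn did not overlap between the groups, with input replicate 3 close to the other two input libraries in this measure.

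**Figure D4:**
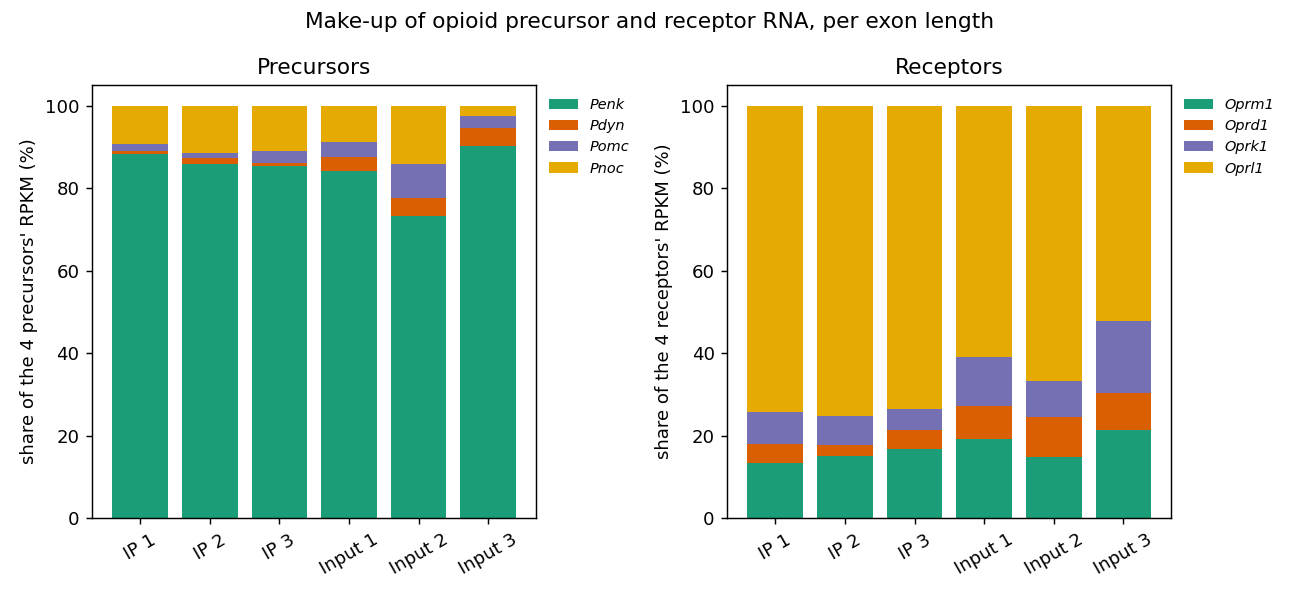
Share of each gene in the summed RPKM of the 4 precursors (left) and of the 4 receptors (right) in each library, as stacked bars that add to 100%, IP libraries left of input libraries. Penk fills most of every precursor bar, and Oprl1 fills 73.6% to 75.3% of the receptor bars in IP and 52.2% to 66.7% in input.

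With all libraries, 4 of 12 genes of peptide processing and 4 of 11 genes of peptide degradation passed the test, against 53.9% of all genes. For processing, standing below that share depended on the setting. Of the 12 genes of peptide processing and dense-core vesicles 3 were higher in IP, 1 was lower and 8 did not pass, and the median log2 fold change was 0.46. Pcsk1n, the gene of an inhibitor of prohormone convertase, rose by 1.57 (SE 0.18), and Pam, the peptide-amidating enzyme gene, by 1.09 (SE 0.34). Scg5, the gene of a convertase chaperone, rose by 0.91 (SE 0.32), and the carboxypeptidase gene Cpd fell by 0.71 (SE 0.26). The convertase genes themselves did not pass, with Pcsk1 at 0.39 (SE 0.36) and Pcsk2 at 0.36 (SE 0.22). Pam and Scg5 lost their calls, which left 1 gene higher, when any of IP replicates 1 and 2 and input replicates 2 and 3 was left out, and 6 were higher without IP replicate 3. Cpd lost its call when any of IP replicates 2 and 3 and input replicates 1 and 2 was left out, and stood at -0.43 without IP replicate 3.

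These processing genes varied with the replicate number. Their summed level was 3558, 3055 and 1712 CPM in IP replicates 1, 2 and 3, against 2220, 2142 and 1201 CPM in the input replicates, so replicate 3 was the lowest library of each group. With the replicate number as a block, 7 of the 12 were higher and 1 was lower, where 56.3% of all genes were called. In that fit the processing genes were not called less often than all genes.

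Of 11 peptidase genes that degrade enkephalins or other neuropeptides 3 were higher in IP, 1 was lower and 7 did not pass, and their median was 0.05. Mme, the gene of neprilysin and a main enkephalin-degrading enzyme, rose by 1.26 (SE 0.18), to 110.5 CPM in IP against 46.1 CPM in input. Ece2, an endothelin-converting enzyme gene, rose by 1.04 (SE 0.26) and Ace, the angiotensin-converting enzyme gene, by 0.76 (SE 0.22). Anpep, the aminopeptidase N gene, fell by 2.92 (SE 0.57) at levels of 0.27 CPM in IP and 2.06 CPM in input. The puromycin-sensitive aminopeptidase gene Npepps had a log2 fold change of -0.04 (SE 0.10). Ace lost its call when any of replicates 1 and 2 of either group was left out, with adjusted p of 0.0530 to 0.0877.

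A list of 13 genes held inhibitory G protein alpha subunits together with beta and gamma subunits of G proteins. Of these, 5 were higher, 3 lower and 5 not passed, with a median of 0.27. For this list and those below, the shares over all genes tested were 26% higher and 27.9% lower. No list was tested against these shares. Gnao1, the Go alpha subunit gene, rose by 0.48 (SE 0.13), Gng3, a neuronal gamma subunit gene, by 1.53 (SE 0.15) and Gnb5, the beta subunit gene that pairs with regulators of G protein signalling, by 0.51 (SE 0.11). Gng7, a gamma subunit gene rich in striatum, fell by 1.73 (SE 0.45). It had 44.9, 41.5 and 48.1 CPM in IP replicates 1, 2 and 3, against 85.4, 77.4 and 284 CPM in the input replicates. Without input replicate 3 the change of Gng7 was -0.89 and was still called (adjusted p 0.000884). Gng7 lost its call without any 1 of the 3 IP libraries, with adjusted p of 0.0506 to 0.0606. Gnao1 lost its call without input replicate 1 or 2 (adjusted p 0.0506 and 0.0528) and with upper-quartile scaling.

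Of 15 effector genes of these receptors 5 were higher, 2 lower and 8 not passed, with a median of 0.20. Prkacb and Prkaca, catalytic subunit genes of cyclic AMP-dependent kinase, rose by 0.69 (SE 0.12) and 1.27 (SE 0.14), and the adenylyl cyclase gene Adcy8 by 0.76 (SE 0.26). Adcy1, another adenylyl cyclase gene, fell by 1.18 (SE 0.15). The count of genes higher was 2 when IP replicate 1 or 2 or input replicate 3 was left out. Adcy8 lost its call in each of these fits, without input replicate 2 and with upper-quartile scaling. Among the genes of the potassium channels that opioid receptors open, Kcnj9 rose by 0.80 (SE 0.24), Kcnj6 fell by 0.51 (SE 0.14), and Kcnj3, at -0.06 (SE 0.16), did not pass. Kcnj9 lost its call when IP replicate 1 or 2 or input replicate 3 was left out (adjusted p 0.0661 to 0.107), and Kcnj6 when input replicate 1 or 2 was (adjusted p 0.0697 and 0.0619).

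Of 17 genes that regulate the receptors 8 were higher, 3 lower and 6 not passed, with a median of 0.00. Over all genes tested 53.9% were called, and whether this list differed from that share was not tested. Gprasp1, the gene of a sorting protein for the delta receptor, rose by 0.71 (SE 0.12), Rgs8, a regulator of G protein signalling, by 0.71 (SE 0.23), and the arrestin gene Arrb1 by 0.47 (SE 0.13). The receptor kinase gene Adrbk2 (Grk3) fell by 0.45 (SE 0.10). Rgs8 had 295, 583 and 370.3 CPM in IP replicates 1, 2 and 3, against 237, 241 and 284 CPM in the input replicates. It lost its call without IP replicate 2 or any 1 input library, and stood at 0.36 without IP replicate 2. That library also had the highest summed level of cerebellar markers, 1475 CPM. The part of cerebellar RNA in the level of Rgs8 was not tested. Arrb1 lost its call without input replicate 1 (adjusted p 0.0592), and both lost theirs with upper-quartile scaling. The count of genes lower was 2 without IP replicate 1 or IP replicate 3, and 5 without input replicate 2. With upper-quartile scaling 5 were higher and 6 lower.

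Of 6 other genes linked to opioids 2 were higher, 1 lower and 3 not passed, with a median of 0.06. Gpr139, an orphan receptor gene known to oppose mu receptor signalling, rose by 1.45 (SE 0.25) with 10.6, 13.2 and 8.07 CPM in IP replicates 1, 2 and 3, against 4.74, 3.71 and 3.18 CPM in the input replicates. Ackr3, the gene of a scavenger receptor of opioid peptides, fell by 2.0 (SE 0.43). The adjusted p of both was 0.00468 or less by edgeR, and each kept its call without any 1 library. Each of the other list genes described as risen or fallen had an adjusted p of 0.0485 or less in the same fit.

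**Figure D5:**
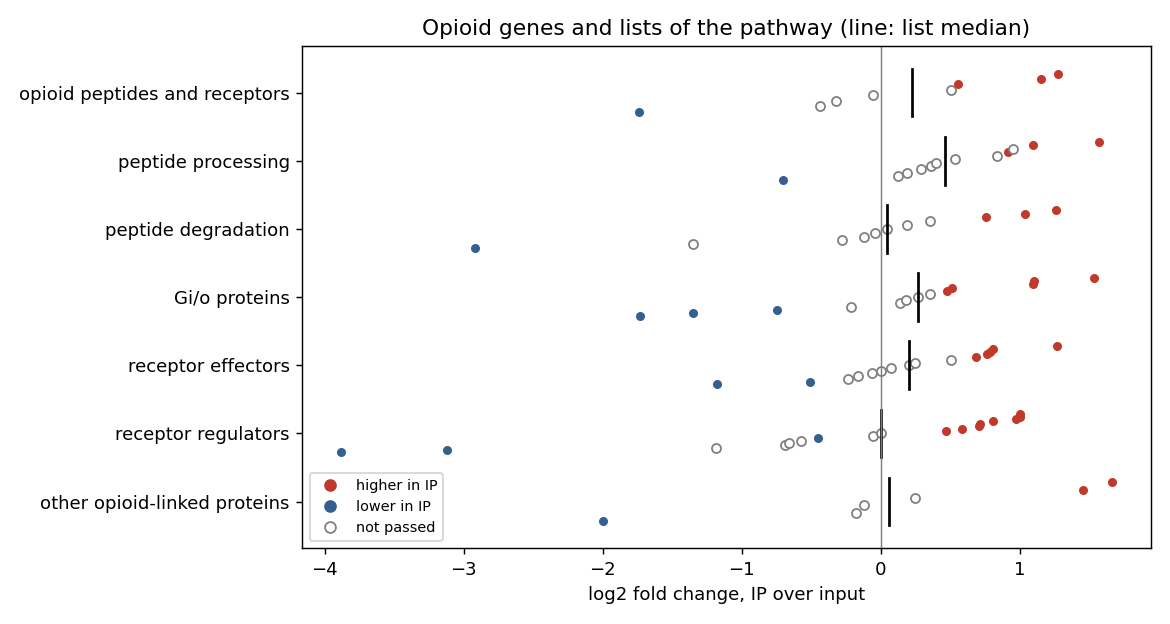
Log2 fold change of IP over input for the 8 opioid genes and for each tested gene of 6 lists of the pathway, 1 point a gene, filled where the adjusted p was under 0.05; the vertical line in each row is the list median. Medians run from 0.00 for receptor regulators to 0.46 for peptide processing, and every list has genes called in both directions.

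Genes with patterns most like each member were sought by Pearson correlation of log2 CPM over the 6 libraries among 11914 genes with names. With so few libraries and 53.9% of genes differing between the groups, high values are common, and they are given as a description. For Pnoc the 3 closest were Cnpy3, Krtcap2 and Atp6v0c, with r from 0.998 to 0.999, and for Oprl1 they were Fam134a, Jkamp and Syngr3, with r from 0.998 to 0.999. Oprm1 lay closest to H2afz, Zfp64 and Zfhx3, each at 0.987. For Pdyn they were Bbs2, Krt9 and Pak2, each at 0.991. Penk was followed by Sap30, Appbp2 and Mbnl2 (0.968 to 0.975), Pomc by Mthfd1, Fam124a and Prkce (0.970 to 0.986), Oprd1 by Sugp1, Oasl2 and Cklf (0.972 to 0.976), and Oprk1 by Ntn3, Kpna3 and Btg2 (0.959 to 0.970).

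The gene counts of a library summed to 41249887 to 45841499 in IP and 38058239 to 41148022 in input, at which 3 counts correspond to 0.0688 to 0.0741 CPM. Lhx5, whose sequences drive the tag, had 46.8 to 56.0 CPM in IP, against 2.20 to 3.92 CPM in input. All 14 midbrain markers were tested, with 2 higher, 5 lower and 7 not passed, and their sum was 56.6 to 92.9 CPM in IP and 55.3 to 201 CPM in input, lowest in input replicate 3. The dopamine transporter gene Slc6a3, which marks dopamine neurons, had 2.87 to 6.67 CPM in IP, against 62.4, 52.3 and 4.99 CPM in input replicates 1, 2 and 3. It was among the 5 lower, but lost its call without IP replicate 3 (edgeR adjusted p 0.0758) and with limma-voom (adjusted p 0.117). Slc6a3 also lost its call without the low-count filter (edgeR adjusted p 0.0861). The 2 higher were Foxa2, with a mean of 6.98 CPM in IP and 0.89 CPM in input, and Pou4f1, with means of 25.6 and 6.29 CPM. Markers of glia were at lower levels in IP, with 8 oligodendrocyte genes summing to 297 to 440 CPM in IP and 3760 to 4467 CPM in input, and 8 astrocyte genes to 746 to 774 CPM in IP and 1455 to 2013 CPM in input. Of the 8 microglial genes 7 fell and 1 did not pass, as did the 8 genes of vessels and meninges. The part of glial RNA in the fold changes of the opioid genes was not tested.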

How the data were processed

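Values are raw counts of reads for each gene symbol, as deposited for each library. Reads were aligned with STAR 2.0.0e to mm10 and counted with HTSeq, per the submitters' processing notes. Which annotation, strand setting and counting mode HTSeq used is not given in the sources used here. The entry for unknown genes and 5 summary lines were left out of totals and tests. Ambiguous reads made up 1.63% ± 0.0460 in IP and 9.35% ± 1.48 in input, and non-unique alignments 44.2% ± 0.402 in IP and 32.5% ± 0.596 in input (mean ± SD of 3 libraries).

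Genes were kept by filterByExpr (minimum count 10, total 15), scaled by TMM, and fitted in R 4.3.3 by edgeR 4.0.16 (robust quasi-likelihood, group as the only term, two-sided, Benjamini-Hochberg, threshold 0.05). The SE is the log2 fold change over the square root of F. CPM used TMM-scaled totals. RPKM divided them by the union of exons in the GENCODE M21 basic annotation, whose symbols matched all 8 members. Floors cover counting error only. Coding sequences were the longest complete ones per gene.

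The members and lists were chosen with earlier results of these data known. Named genes were the 8 members, of each list up to 3 most abundant genes called in the commoner direction and 1 in the other, the 3 genes most correlated with each member (average log2 CPM at least 1), and markers beside a result. Pcsk1, Pcsk2, Npepps, Kcnj9, Kcnj6, Kcnj3, Ipcef1, Hcrt, Avp, Oxt, Pmch, Foxa2, Pou4f1, Tac1, Scn4b and Pde10a were named after their values were seen. One gene that the rule names is not reported here.

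In the labels, IP and input of 1 replicate number also share their lane number. Whether they shared a lane or a preparation cannot be told from that number. Deviations from group means correlated at 0.177, 0.0808 and 0.0639 within these pairs. Chi-square per degree of freedom between replicates was 25.6 to 79.3, so no library was a copy. On simulated data with 200 changed genes of 17197, the fit recovered 52% of 2-fold changes and 83% of 4-fold changes, with 3.57% of calls false. In the real data 53.9% of genes were called, so these rates do not carry over to the real fit. A gene that did not pass may still have changed. Alternatives were other scalings, filters, DESeq2 1.42.0, limma-voom 3.58.1, a replicate block, a threshold of 0.01 and libraries left out. A library left out was followed by fresh filtering.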

Additional observations from a re-analysis of the deposited data

How the results depend on the processing

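Pnoc and Oprl1 were called higher under all 16 alternatives, with log2 fold changes of 1.04 to 1.45 and 0.88 to 1.28. Pomc and Oprd1 kept their sign and were called in none of them. Leaving out 1 library each gave 3721 to 4384 genes higher, 4164 to 4783 lower, 2 to 4 opioid genes higher and 0 to 1 lower, with Penk at 0.12 to 1.23, Pdyn at -2.14 to -0.99, Oprm1 at 0.45 to 0.66 and Oprk1 at -0.24 to 0.20. Oprk1 turned positive without IP replicate 3 (0.20) and without input replicate 3 (0.11). Leaving out IP replicate 2 and input replicate 3 together gave Penk at 1.26, now called, and Oprm1 at 0.47, no longer called (adjusted p 0.0851). With the replicate block 0 opioid genes were lower, as Pdyn stood at -1.57 and was no longer called, and the block changed no other call among the 8 genes. At an adjusted p threshold of 0.01, 0 opioid genes were lower (Pdyn at -1.74), and Oprm1, at 0.56, was no longer called. Upper-quartile scaling moved the median log2 fold change of all genes to -0.17 and library totals to -0.15, and 38.1% and 39.2% of calls were then upward, against 48.2% with TMM. Neither changed a call among the opioid genes. Over the 16 alternatives, the genes higher and lower numbered 1 to 7 and 0 to 1 in peptide processing (3 and 1 with all libraries and TMM), 1 to 4 and 1 to 2 in degradation (3 and 1), 2 to 6 and 1 to 3 among effectors (5 and 2), 5 to 8 and 2 to 6 among receptor regulators (8 and 3), and 2 and 1 to 2 among the other opioid-linked genes (2 and 1). The lowest counts among the opioid genes, where depth limits most, were 68 for Pdyn and 83 for Pomc. The cause of these changes was not tested.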
